A study of Mus musculus with 15 samples.

Results

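The 9 genes described here, *Pdgfra*, *Pi16*, *Dpp4*, *Dpt*, *Clec3b*, *Cd34*, *Smoc2*, *Scara5* and *Fbln1*, are markers of the fibroblasts in the adventitia, the outer coat of the aorta. They were taken by symbol from the 24982 gene symbols counted in 15 RNA-Seq libraries, and all 9 were found and passed the filter on low counts. Each library came from the whole aorta of a 10-month-old male C57BL/6 mouse labelled WT (C57BL/6J in the study's methods). All 15 mice received aldosterone through an osmotic minipump (200 µg/kg/d) and 0.9% NaCl plus 0.2% KCl in their drinking water (Aldo-salt) over 7 days, starting 2 weeks after surgery. The control mice (n = 5) were sham operated, the second group (n = 5) was orchiectomized, and the third group (n = 5) was orchiectomized and carried a pellet of DHT, an androgen that aromatase does not convert to estrogen. Because every mouse received Aldo-salt, the comparisons are between androgen states under that treatment.

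The adventitia is a layer of collagen-rich connective tissue around the smooth muscle of the aorta. Its fibroblasts make the collagens and proteoglycans of that layer and carry the receptor PDGFRα. A subset marked by PI16, DPP4 and CD34 is described in the connective tissue of many organs and lies around vessels. Some of the 9 genes are also used by other cells: *Cd34* by endothelial cells, *Dpp4* by T cells and some epithelia. Fewer cells of a type and less RNA per cell cannot be told apart in whole aortas.

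Each library held 8268957 to 13816864 gene reads (median 10930079), and levels are given as CPM, the counts scaled to a common library size with TMM. A gene was called at an unadjusted *P* value under 0.01 in edgeR's quasi-likelihood fit to 14121 genes and all 15 libraries, and Benjamini-Hochberg adjusted *P* values over those genes are given beside it. Marker lists of other cell types did not hold a constant level across the groups. The summed level of 6 mesothelial markers was 34.5 to 96.2 CPM in the control mice, 46.7 to 380 CPM in the orchiectomized mice and 8.85 to 24.1 CPM in the DHT-treated mice, with no marker at 0 in any library. That of 6 T cell markers was 3.47 to 12.8, 5.81 to 58.0 and 2.82 to 5.41 CPM, and that of 5 B cell markers 3.28 to 7.93, 6.24 to 149 and 2.57 to 10.5 CPM, in the same order, and again none was at 0. Orchiectomized replicate 2 had the highest mesothelial and B cell levels, and values without it are given beside the named genes whose fold it moved by over 1.5 times. RNA of 20 general fibroblast genes, *Dcn* and *Col1a1* among them, was present in every group, at a summed 10050 to 13105, 10934 to 14907 and 8518 to 11267 CPM. Which cells the reads of the 9 genes came from was not tested.

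Steroid hormones such as glucocorticoids and mineralocorticoids act through transcription factors that bind a palindrome of 2 half-sites. The 250 bases before the RefSeq start of transcription (GRCm38.p6) were read for the 6 members in the promoter table used here. They are shown for the 4 genes called between the DHT-treated and the untreated orchiectomized mice, 5′ to 3′ on the gene's own strand. Matches to the half-site TGTTCT on either strand, or to the TATA box letters TATAAA, are in capitals.
Dpp4 (chr2:62412232-62412481, minus strand): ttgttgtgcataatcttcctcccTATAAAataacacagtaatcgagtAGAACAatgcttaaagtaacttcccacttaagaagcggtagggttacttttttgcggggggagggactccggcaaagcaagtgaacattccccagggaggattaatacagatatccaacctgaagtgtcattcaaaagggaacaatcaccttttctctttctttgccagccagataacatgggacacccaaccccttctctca
Fbln1 (chr15:85205699-85205948, plus strand, the first of 2 listed starts): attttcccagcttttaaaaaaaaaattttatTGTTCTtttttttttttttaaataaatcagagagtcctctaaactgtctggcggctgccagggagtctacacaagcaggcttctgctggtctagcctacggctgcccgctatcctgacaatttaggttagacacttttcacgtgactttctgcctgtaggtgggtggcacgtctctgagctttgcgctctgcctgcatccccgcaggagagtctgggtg
Dpt (chr1:164796413-164796662, plus strand): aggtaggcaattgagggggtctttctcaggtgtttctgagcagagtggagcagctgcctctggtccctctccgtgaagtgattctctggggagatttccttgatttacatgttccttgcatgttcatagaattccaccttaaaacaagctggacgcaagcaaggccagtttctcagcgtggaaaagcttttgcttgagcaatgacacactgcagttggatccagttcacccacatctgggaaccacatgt
Cd34 (chr1:194938571-194938820, plus strand): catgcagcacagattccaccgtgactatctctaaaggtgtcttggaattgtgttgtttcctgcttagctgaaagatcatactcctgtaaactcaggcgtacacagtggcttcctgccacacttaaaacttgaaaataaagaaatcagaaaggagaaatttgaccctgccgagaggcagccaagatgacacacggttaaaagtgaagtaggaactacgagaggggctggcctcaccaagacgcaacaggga

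The *Dpp4* window holds a half-site whose first base lies at position -203 from the start of transcription. It also holds the TATA box letters TATAAA, searched on either strand, at -227. The *Fbln1* window holds a half-site at -219 and the *Dpt* and *Cd34* windows hold none. A half-site was also found at -27 in the window of *Pi16*, which GENCODE annotates as exon and UTR of that gene over its whole length, and none was found in that of *Pdgfra*. So 3 of 6 members had the half-site, against 16.1% of the 32851 promoter windows in the table, and 12.4% of those windows held the TATA box letters. Neither match overlaps the other. The full palindrome, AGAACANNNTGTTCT, was in 0 of the 6 windows and in 3 of all 32851 (0.00913%). These are matches of letters in a short window and do not show where a receptor binds or that a TATA box is in use. In GENCODE's annotation the *Dpp4* window lies within the span of Gm13561 and touches no exon, the *Fbln1* window touches no gene, and 19 bases of the *Dpt* window and 2 of the *Cd34* window are annotated as the gene's own UTR.

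Per kilobase of exon, the 9 genes differed widely in level in the control mice. *Clec3b*, which encodes the plasminogen-binding protein tetranectin, stood highest at 255 ± 29.0 CPM per kb (mean ± SD over 5 mice), followed by *Dpt* at 153 ± 27.1, *Cd34* at 76.9 ± 11.9, *Pi16* at 72.2 ± 8.63 and *Smoc2* at 64.2 ± 12.6. Below them were *Fbln1* at 49.7 ± 7.83, *Scara5* at 26.8 ± 7.14, *Pdgfra* at 10.8 ± 2.59 and *Dpp4* at 2.54 ± 0.867 CPM per kb. The ranges of the 5 mice overlapped between neighbours in this order from *Cd34* through *Fbln1* and were separate between all the others. *Dpp4* was thus the least abundant of the 9 genes, with 89 to 219 reads per control library, 116 to 330 per orchiectomized library and 19 to 65 per DHT-treated library. Exons of *Pdgfra*, *Pi16* and *Cd34* overlap other annotated genes over 486, 222 and 148 bases, most of them antisense, and reads there cannot be told apart without strand.

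**Figure D1:**
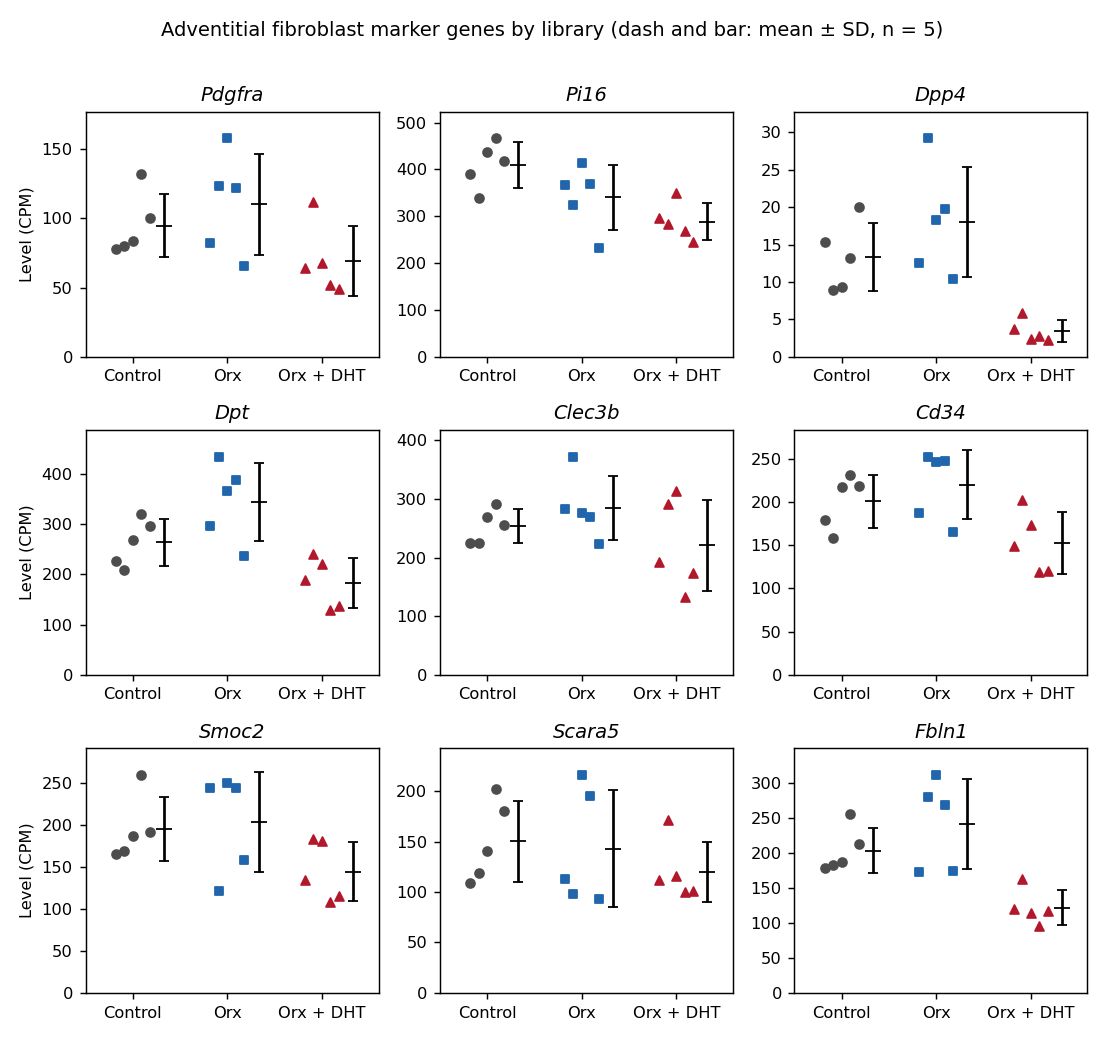
Level of each of the 9 genes in CPM (vertical axes, from 0) in the 5 libraries of the control (Con), orchiectomized (Orx) and DHT-treated orchiectomized (Orx + DHT) mice; points are libraries, and the dash and bar are mean ± SD. For *Dpp4* and *Fbln1* every DHT-treated library lies below every library of the other 2 groups.

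The comparison of orchiectomized with control mice asks what removal of gonadal androgen does under Aldo-salt. None of the 9 genes was called in it by edgeR, and none had an unadjusted *P* value under 0.05, which 12% of all genes tested had; DESeq2 and limma's voom also called 0 of 9, and 3.22% of all genes tested were called by edgeR. In these mice 7 genes had higher and 2 lower means after orchiectomy, where 56.8% of all genes tested were higher, and the log2 fold change had a median of 0.17 over the 9 genes and of 0.04 over all genes. The groups overlapped for all 9, and separated upward for 0.991% and downward for 0.517% of all genes. With voom 4 genes were higher and 5 lower. The largest differences in edgeR were in *Dpp4*, at 0.43 (95% CI -0.24 to 1.10, unadjusted *P* = 0.189) but -0.01 with voom, and in *Dpt*, at 0.38 (95% CI -0.05 to 0.81, unadjusted *P* = 0.0776). *Pi16* was the lowest at -0.27 (95% CI -0.58 to 0.05, unadjusted *P* = 0.0922), and *Scara5* had a value of -0.07 (unadjusted *P* = 0.790). The intervals leave differences of this size or none undecided at 5 mice per group.

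With DHT in orchiectomized mice 4 of the 9 genes were called lower by edgeR and DESeq2: *Dpp4*, *Fbln1*, *Dpt* and *Cd34*. The other 5 did not pass. Voom called *Dpp4* and *Fbln1* alone. The fold change was below 0 for 9 of 9 genes in edgeR and for 7 in voom, which placed *Pi16* and *Scara5* above 0. Of all 14121 genes tested, 7.27% were called lower in this comparison, and 53.3% had a log2 fold change under 0. The median log2 fold change of the 9 genes was -0.53, against -0.02 for all genes. The adjusted *P* value of *Dpp4*, *Fbln1* and *Dpt* was also under 0.05, a share of 3 of 9 against 3.8% of all genes called lower at that threshold. Against the sham-operated controls the DHT-treated mice again had lower means for all 9 genes, and 3 passed the test, *Dpp4*, *Fbln1* and *Pi16*, where 2.01% of all genes were called lower and 50.5% had a value under 0. In the lower direction, 1 of the 9, *Dpp4*, also had an adjusted *P* value under 0.05, as had 0.149% of all genes. The median there was -0.46 against -0.003 for all genes. Both comparisons use the same DHT-treated mice and are not independent of each other.

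**Figure D2:**
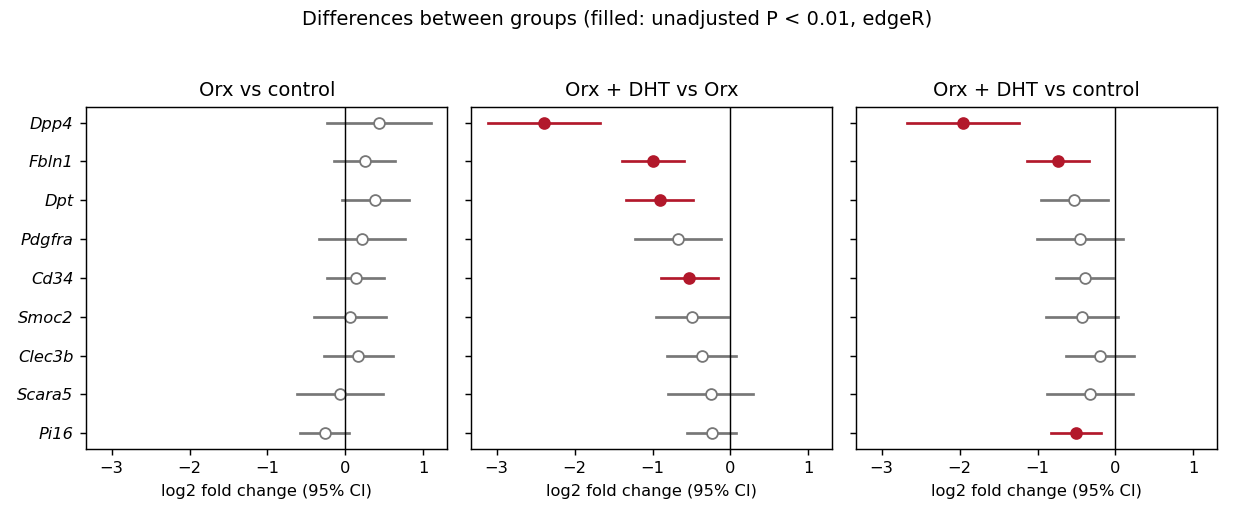
Log2 fold change (horizontal axes, points) with its 95% CI (lines) for each of the 9 genes in the 3 comparisons; filled red points have an unadjusted *P* value under 0.01 in edgeR and open grey points do not. All 9 points lie below 0 in both comparisons of the DHT-treated mice, and *Dpp4* lies farthest, at -2.39 against the orchiectomized and -1.96 against the control mice.

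Among the genes of the cell surface, *Dpp4* encodes dipeptidyl peptidase 4, a membrane protease that cleaves incretins and chemokines. It was at 15.3, 8.99, 9.28, 13.2 and 19.99 CPM in the controls. After orchiectomy alone it was at 12.5, 29.2, 18.3, 19.7 and 10.4 CPM. In the DHT-treated mice it was at 3.68, 5.86, 2.44, 2.72 and 2.28 CPM. The highest DHT-treated library was below the lowest library of both other groups, whereas control and orchiectomized libraries overlapped. The fitted level was 5.25-fold lower with DHT than without it in orchiectomized mice (log2 fold change -2.39, SE 0.34, unadjusted *P* = 3.94e-06, adjusted *P* = 0.00360). It was 3.90-fold lower than in the control mice (-1.96, SE 0.34, unadjusted *P* = 3.36e-05, adjusted *P* = 0.0318). Separation of this kind downward was seen for 4.34% of all genes against the orchiectomized mice and 1.79% against the control mice. Over 15 fits that each left out 1 library the value stayed between -2.68 and -2.13 against the orchiectomized mice, and it was -2.13 without orchiectomized replicate 2.

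*Dpp4* moved with the mesothelial markers, 6 of 6 of which were called lower with DHT against the orchiectomized mice (median -2.96) and 5 of 6 against the control mice (median -2.24). The mesothelial genes with the largest differences against the orchiectomized mice were *Krt19*, a keratin, at -4.55, *Msln*, which encodes mesothelin, at -3.37 and *Upk1b* at -3.05. Orchiectomized replicate 2 carried much of these, with 209 CPM of *Krt19* and 97.5 CPM of *Msln* against group means of 47.4 and 30.2 CPM. Without it the values were -1.80, -2.18 and -2.36, still 6 of 6 markers were called against the orchiectomized mice, and their median was -2.48. All 5 T cell markers tested were also called lower against the orchiectomized mice (median -2.46), led by *Cd8a* at -3.81, *Lck* at -2.80 and *Cd3e* at -2.46, as were all 5 B cell markers (median -3.14), with *Ms4a1* at -4.28 and *Cd79a* at -3.14. Voom called 3 of the 5 T cell and 2 of the 5 B cell markers. Reads were few: per DHT-treated library *Cd8a* had 1 to 7, *Cd3e* 1 to 12, *Lck* 5 to 17, *Ms4a1* 2 to 10 and *Cd79a* 7 to 36. Without orchiectomized replicate 3 *Cd8a* was at -2.85 and *Lck* at -2.12, and without orchiectomized replicate 2 *Cd79a* was at -2.13. Against the control mice 0 of 5 T cell and 0 of 5 B cell markers were called by edgeR, DESeq2 or voom, and 0 had an unadjusted *P* value under 0.05. Between orchiectomized and control mice edgeR called 4 of the 5 T cell and 5 of the 5 B cell markers higher. DESeq2 called 4 and 5 in that comparison, and voom 2 and 2. The part of mesothelial, T cell or B cell RNA in the results of *Dpp4* and the other 8 genes was not tested.

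**Figure D3:**
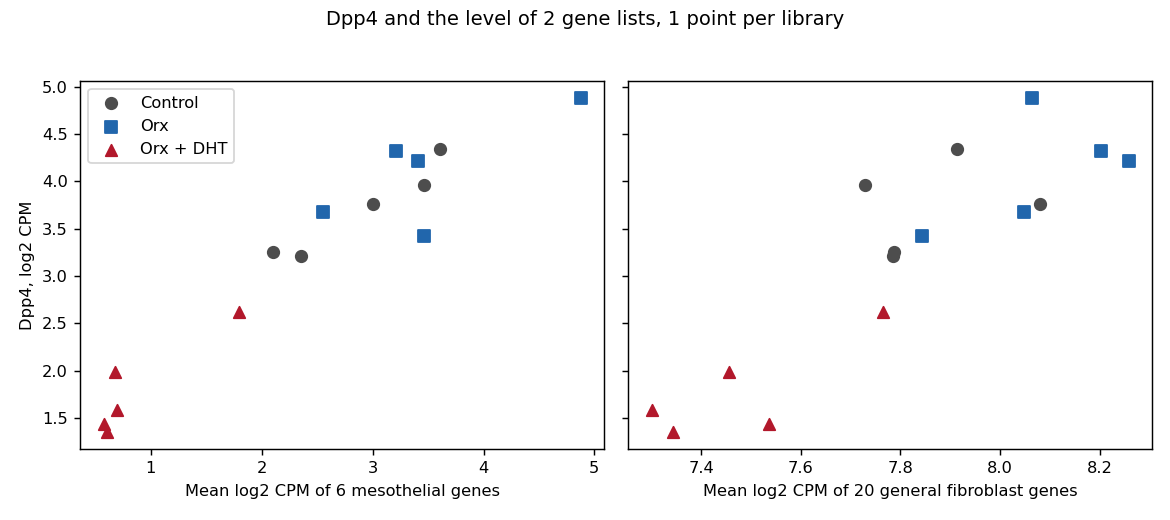
*Dpp4* in log2 CPM (vertical axis) against the mean log2 CPM of 6 mesothelial genes (left) and of 20 general fibroblast genes (right), with 1 point per library and colours and shapes for the 3 groups. On the mesothelial axis the DHT-treated libraries lie below all others, at 0.58 to 1.79. On the fibroblast axis they lie at 7.30 to 7.76 and overlap the control libraries, which begin at 7.73.

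*Cd34* encodes a sialomucin of progenitor, endothelial and fibroblast surfaces. It was at 179, 158, 217, 231 and 219 CPM in the control mice, at 188, 253, 246, 248 and 166 CPM in the orchiectomized mice and at 149, 202, 174, 119 and 120 CPM in the DHT-treated mice. The DHT-treated range overlapped those of both other groups. The level was 1.44-fold lower with DHT than without it in orchiectomized mice (log2 fold change -0.53, SE 0.17, unadjusted *P* = 0.00791, adjusted *P* = 0.0912), and the value against the control mice was -0.39 (unadjusted *P* = 0.0364). The first call was lost in 9 of 15 fits without 1 library, among them that without orchiectomized replicate 2 (-0.46, unadjusted *P* = 0.0241). Of 8 endothelial markers, 3 were called lower with DHT in both comparisons, *Tek* (-0.89 against the orchiectomized mice), *Vwf* (-0.82) and *Pecam1* (-0.53). Their summed level was 821 to 1224, 914 to 1458 and 681 to 894 CPM in control, orchiectomized and DHT-treated mice, with none at 0, and the part of endothelial RNA in the *Cd34* result was not tested.

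*Pi16* encodes a membrane-anchored protein of the CAP domain family and defines the *Pi16* state of adventitial fibroblasts. It was at 390, 338, 438, 466.2 and 418 CPM in the control mice, at 366, 323, 414, 369 and 231 CPM in the orchiectomized mice and at 297, 284, 349, 268 and 244 CPM in the DHT-treated mice. Only DHT-treated replicate 3 reached the range of the control mice, while the orchiectomized range took in the whole DHT-treated one. *Pi16* was 1.42-fold lower in the DHT-treated than in the control mice (log2 fold change -0.51, SE 0.15, unadjusted *P* = 0.00392, adjusted *P* = 0.210). Against the orchiectomized mice the value was -0.24 (95% CI -0.56 to 0.08, unadjusted *P* = 0.128). The call against the control mice was lost without control replicate 3 or 4 or without DHT-treated replicate 4 or 5, with *P* values up to 0.0142.

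*Pdgfra*, the receptor for PDGF-A and PDGF-C dimers, was at 77.7, 79.7, 83.8, 132 and 100.2 CPM in the control mice and at 82.0, 123, 158, 122 and 65.8 CPM in the orchiectomized mice. In the DHT-treated mice it was at 64.5, 112, 67.8, 51.6 and 49.0 CPM. Replicate 2 stood apart within the DHT-treated group, and the groups overlapped. The value of -0.67 against the orchiectomized mice was not called (SE 0.26, unadjusted *P* = 0.0202), and without DHT-treated replicate 2 it was -0.92 (unadjusted *P* = 0.00177). *Scara5*, a scavenger receptor that takes up ferritin, ranged from 108 to 202, from 93.4 to 216 and from 100.5 to 171 CPM in control, orchiectomized and DHT-treated mice, and was not called in either comparison (-0.25, unadjusted *P* = 0.338, and -0.32, unadjusted *P* = 0.227).

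Among the secreted proteins, *Fbln1* encodes fibulin 1, a glycoprotein of elastic fibers and basement membranes. It was at 179, 184, 187, 256 and 213 CPM in the controls. After orchiectomy alone it was at 173, 281, 312, 269 and 174 CPM. In the DHT-treated mice it was at 119.5, 163, 114, 95.2 and 117 CPM. All 5 DHT-treated libraries were below the lowest of the other 10. *Fbln1* was 1.99-fold lower with DHT than without it in orchiectomized mice (log2 fold change -0.99, SE 0.19, unadjusted *P* = 9.07e-05, adjusted *P* = 0.0134) and 1.67-fold lower than in the control mice (-0.74, SE 0.19, unadjusted *P* = 0.00121, adjusted *P* = 0.132). Both calls were made in each of the 15 fits without 1 library, with values from -1.12 to -0.85 and from -0.87 to -0.65.

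*Dpt* encodes dermatopontin, a small matrix protein that binds decorin and assists collagen fibril assembly. It was at 227, 208, 268, 320 and 296 CPM in the control mice, at 295, 434, 366, 387 and 236 CPM in the orchiectomized mice and at 189, 240, 220.5, 129 and 136 CPM in the DHT-treated mice. Only the lowest orchiectomized library, replicate 5, fell within the range of the DHT-treated ones, at 236 CPM against their highest value of 240. *Dpt* was 1.88-fold lower with DHT than without it (log2 fold change -0.91, SE 0.20, unadjusted *P* = 0.000449, adjusted *P* = 0.0243). Voom gave -0.58 (unadjusted *P* = 0.0101) and did not call it. The value was -0.80 (unadjusted *P* = 0.00167) without orchiectomized replicate 2, the highest of the 15 libraries. Against the control mice it was -0.53 (95% CI -0.96 to -0.10, unadjusted *P* = 0.0200), which did not pass.

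*Clec3b* and *Smoc2*, a matricellular protein of the SPARC family, were not called in any comparison. *Clec3b* ranged from 225 to 292 CPM in the control mice, from 223 to 372 CPM in the orchiectomized mice and from 134 to 314 CPM in the DHT-treated mice. The DHT-treated range took in that of the control mice, and the values were -0.37 against the orchiectomized mice (unadjusted *P* = 0.0981) and -0.20 against the control mice (unadjusted *P* = 0.353). Orchiectomized replicate 2 was again the highest library, and without it the first value was -0.24 (unadjusted *P* = 0.268). *Smoc2* ranged from 166 to 260 CPM, from 121 to 251 CPM and from 109 to 183 CPM in control, orchiectomized and DHT-treated mice. Its lowest orchiectomized library was replicate 2, and without it the value against the untreated orchiectomized mice went from -0.50 (unadjusted *P* = 0.0376) to -0.62 (unadjusted *P* = 0.00605).

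The 9 genes varied together from mouse to mouse. Across the 15 libraries, Pearson's r of log2 CPM was between 0.39 and 0.97 for the 36 pairs (median 0.69), and after removing group means it was between 0.04 and 0.98 (median 0.69). *Dpt* and *Cd34* gave the highest value and *Dpp4* and *Smoc2* the lowest after that removal. These values share libraries and their scaling and are given as a description. DHT-treated replicates 4 and 5 were among the 5 lowest of 15 libraries for 9 of 9 genes, and DHT-treated replicate 1 for 8, whereas DHT-treated replicate 2 was among them for 3. Orchiectomized replicate 5 was among them for 6, DHT-treated replicate 3 for 4 and control replicate 2 for 3. The summed level of the 9 genes was 1490 to 2173 CPM in the control mice, 1359 to 2258 CPM in the orchiectomized mice and 1008 to 1653 CPM in the DHT-treated mice. Orchiectomized replicate 5, at 1359 CPM, and control replicates 1 and 2, at 1566 and 1490 CPM, thus lay within the range of the DHT-treated mice.

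**Figure D4:**
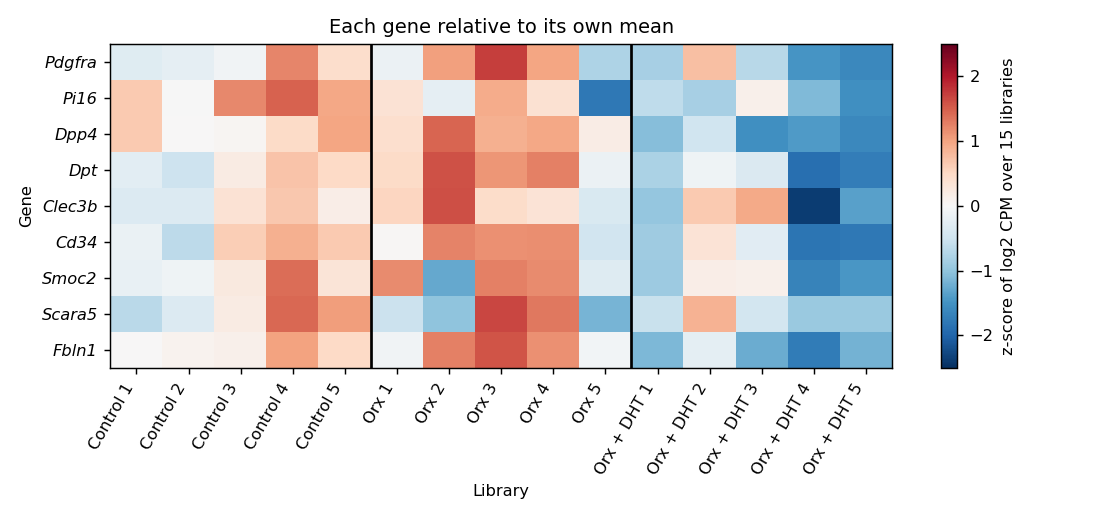
Level of each of the 9 genes (rows) in each of the 15 libraries (columns, grouped as control, Orx, and Orx + DHT), as the z-score of log2 CPM over the 15 libraries; red is above and blue below the gene's own mean. DHT-treated replicates 4 and 5 are blue for all 9 genes, and orchiectomized replicate 5 is the lowest of all libraries for 2.

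Expressed relative to *Pdgfra* in the same library, *Dpp4* was the only one of the other 8 genes whose ratio did not overlap between groups. Its log2 ratio to *Pdgfra* was -4.37 ± 0.26 with DHT (mean ± SD, range -4.80 to -4.13), -2.64 ± 0.37 in the orchiectomized mice (range -3.11 to -2.07) and -2.86 ± 0.49 in the control mice. The difference was -1.74 against the orchiectomized and -1.51 against the control mice, and -1.80 and -1.62 when 20 general fibroblast genes replaced *Pdgfra* as the reference. Of all genes tested, 0.375% and 0.22% had ratios to *Pdgfra* that separated downward in these comparisons. The ratio of *Fbln1* differed by -0.30 and that of *Dpt* by -0.25 against the orchiectomized mice, and those of *Pi16* and *Scara5* by 0.45 and 0.48, with overlapping groups. *Dpp4* was thus lower with DHT by more than *Pdgfra* and by more than the mean of the 20 general fibroblast genes in the same libraries. No mesothelial reference was used. The mesothelial markers had median log2 fold changes of -2.96 and -2.24 in these comparisons, against -2.39 and -1.96 for *Dpp4* itself. The *Dpp4* ratio also rests on 19 to 65 reads per DHT-treated library.

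Some, though not most, of the other fibroblast genes were also called lower with DHT. Over all genes tested, 7.27% were called lower against the orchiectomized and 2.01% against the control mice. Of 15 further genes of the *Pi16* state, 6 were called lower with DHT against the orchiectomized mice (median -0.47) and 7 against the control mice (median -0.45), and after orchiectomy 0 were called by edgeR (1 at an unadjusted *P* value under 0.05), 1 by DESeq2 and 0 by voom. The 3 with the largest differences against the orchiectomized mice were *Cd55*, a complement inhibitor, at -1.66 (SE 0.32, adjusted *P* = 0.0143), *Efemp1*, a fibulin, at -1.33 (SE 0.22, adjusted *P* = 0.00777), and *Pcolce2*, which enhances procollagen processing, at -1.09 (SE 0.22, adjusted *P* = 0.0171). Of 20 general fibroblast genes, 8 were called lower against the orchiectomized mice (median -0.46) and 3 against the control mice (median -0.33). Voom called 5 and 3 of the 15 in these comparisons, and 4 and 2 of the 20. After orchiectomy edgeR called 1 of the 20 higher (*Mmp2*, a matrix metalloproteinase, 0.47), a call that was lost in 10 of 15 fits without 1 library. DESeq2 called 2 of the 20 in that comparison and voom 0. Against the orchiectomized mice 2 of the 15, 1 of the 20 and 3 of 12 genes of activated fibroblasts had values above 0, *Ly6a* (0.01) and *Gpx3* (0.67) among them, and none of these was called. *Lum*, which encodes the collagen-binding proteoglycan lumican, was at -1.90 (SE 0.27, adjusted *P* = 0.00360), and *Col14a1*, a fibril-associated collagen, at -1.68 (SE 0.26, adjusted *P* = 0.00653). *Tcf21*, a transcription factor of fibroblast precursors, was at -2.83 (SE 0.76, adjusted *P* = 0.0452), but its orchiectomized libraries ranged from 2.26 to 46.4 CPM and overlapped the others, and without orchiectomized replicate 2 it was at -1.47 and no longer called (unadjusted *P* = 0.0127). Of the 12 genes of activated fibroblasts, 4 were called lower in both comparisons (medians -0.38 and -0.44), led by *Cthrc1*, a secreted regulator of collagen deposition, at -2.54, *Fap* at -1.29 and *Col12a1*, another fibril-associated collagen, at -1.15. *Cthrc1* was counted in few reads, 1 to 9 per DHT-treated library and 24 to 55 per orchiectomized library.

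Means were higher with DHT for several lists. All 10 smooth muscle genes had higher means with DHT than without it in orchiectomized mice (median 0.40), of which 0 were called by edgeR (5 at an unadjusted *P* value under 0.05), 1 by DESeq2 and 1 by voom. Without orchiectomized replicate 2 their median was 0.35, their lowest value was -0.11 and 1 was called higher. Voom placed 9 of the 10 above 0. Against the control mice 0 were called by edgeR (4 at an unadjusted *P* value under 0.05), 1 by DESeq2 and 3 by voom. Their summed level was 16264 to 20150 CPM with DHT, 8841 to 16032 CPM without it and 11312 to 16534 CPM in the control mice. CPM is a share of all reads, and the part of smooth muscle RNA in the lower shares of the 9 genes was not tested. All 5 pericyte genes likewise had higher means (median 0.23), with 0 called by edgeR, DESeq2 or voom and 0 at an unadjusted *P* value under 0.05. Without orchiectomized replicate 2 the pericyte median was 0.16 and the lowest value -0.05, and voom placed 4 of the 5 above 0. Of 5 skeletal muscle genes, 2 were called higher with DHT against the orchiectomized mice, the actin *Acta1* at 3.33 (SE 0.88, adjusted *P* = 0.0436; 3.98 without orchiectomized replicate 5) and the myosin light chain *Mylpf* at 2.80 (SE 0.71, adjusted *P* = 0.0383), and voom called 1. Without orchiectomized replicate 2, 4 of the 5 were called higher. Their summed level was 28.4 to 450 CPM in the control, 7.70 to 181 CPM in the orchiectomized and 60.4 to 346 CPM in the DHT-treated mice, and against the control mice 0 were called by edgeR, DESeq2 or voom, with 0 at an unadjusted *P* value under 0.05. Of 6 adipocyte genes, 1 was called higher, *Plin4*, which encodes a lipid droplet protein, at 0.68 (SE 0.15, adjusted *P* = 0.0245). Of 5 Schwann cell genes, 0 were called by edgeR, DESeq2 or voom and 0 had an unadjusted *P* value under 0.05 (median -0.57). Of 7 macrophage markers, 3 were called lower against the orchiectomized mice by edgeR and DESeq2 and 0 by voom (median -0.77), *Adgre1*, *Lyz2* and *Csf1r*. In the fits without 1 library these calls were lost in 3, 4 and 11 of 15, and *Lyz2* went from -1.15 to -0.57 (unadjusted *P* = 0.0201) without orchiectomized replicate 2, a fit that called 1 of the 7. Against the control mice edgeR called 0 of the 7 (2 at an unadjusted *P* value under 0.05), DESeq2 called 1 and voom 0.

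**Figure D5:**
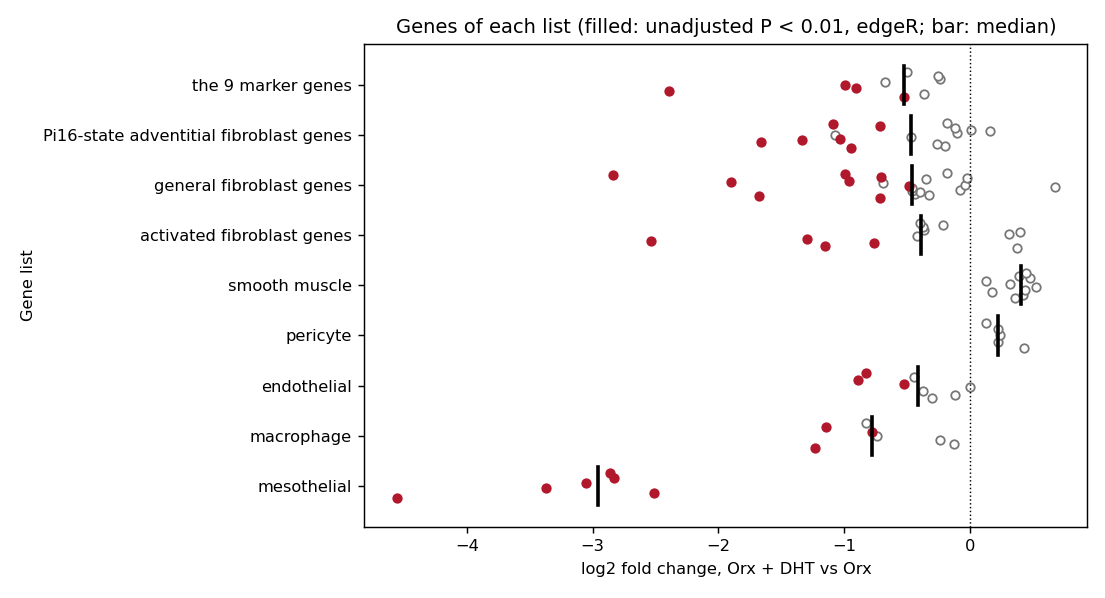
Log2 fold change between DHT-treated and untreated orchiectomized mice (horizontal axis) for each gene of 9 lists (rows), with the 9 marker genes at the top; filled red points have an unadjusted *P* value under 0.01 in edgeR and bars are medians. The fibroblast lists have medians from -0.53 to -0.38, the smooth muscle genes 0.40 and the mesothelial genes -2.96.

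In the families of the 9 genes, relatives did not all behave alike. Of 7 fibulins, 4 were called lower with DHT against the orchiectomized mice, *Fbln1*, *Efemp1*, *Fbln2* at -0.90 (adjusted *P* = 0.0110) and *Hmcn1* at -2.16 (adjusted *P* = 0.0426; -1.37 without orchiectomized replicate 2), while the elastic fiber genes *Fbln5* (-0.30, unadjusted *P* = 0.227) and *Efemp2* (0.14, unadjusted *P* = 0.421) were not. The calls of *Fbln1*, *Efemp1* and *Fbln2* were made against the control mice too, although *Efemp1* lost it in 5 of 15 fits without 1 library, and *Fbln7* was called in neither comparison. Of 6 dipeptidyl peptidase genes, *Dpp4* and *Fap* were called lower in both comparisons. *Fap*, which encodes fibroblast activation protein and lies on chromosome 2 like *Dpp4* (62500943 to 62574075, against 62330073 to 62412231 for *Dpp4*, GRCm38), was at -1.29 (SE 0.27, adjusted *P* = 0.0197). The intracellular relatives *Dpp8* and *Dpp9* were at -0.002 and -0.10, and *Dpp6* and *Dpp10* at -0.39 and -0.95 with SEs of 1.13 and 0.60. *Dpp6* rested on DHT-treated replicate 5, at 16.5 CPM against a group mean of 4.06, and was at -2.41 without it. None of these 4 was called by edgeR, and voom called *Dpp10* lower (-1.62, unadjusted *P* = 0.00628) and did not call *Fap* (-0.87, unadjusted *P* = 0.0160).

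Of the PDGF genes, *Pdgfrl*, a receptor-like protein, was the only 1 of 7 called (-0.78, unadjusted *P* = 0.00929, adjusted *P* = 0.0994), and it lost the call with voom and in 10 of 15 fits without 1 library. *Pdgfrb*, the receptor of smooth muscle and pericytes, was at -0.02, and the ligands *Pdgfa*, *Pdgfb*, *Pdgfc* and *Pdgfd* were between -0.16 and 0.18. In the SPARC and SMOC family of 8, *Sparcl1* was called higher after orchiectomy (0.43, unadjusted *P* = 0.00193) and lower with DHT against the orchiectomized mice (-0.51, adjusted *P* = 0.0244), and *Smoc1* was not called (0.38, unadjusted *P* = 0.124). Of the 5 CAP domain genes, *Crispld2*, a secreted relative of *Pi16*, was called higher in the DHT-treated than in the control mice (0.54, unadjusted *P* = 0.00316, adjusted *P* = 0.193), opposite to *Pi16*, and lost the call in 3 of 15 fits without 1 library. *Podxl* and *Podxl2*, the relatives of *Cd34*, were at -0.39 and 0.45 against the orchiectomized mice and were not called; against the control mice *Podxl2* was at 0.56, called by DESeq2 and voom but not by edgeR (unadjusted *P* = 0.0131). The scavenger receptors *Colec12*, *Scara3* and *Msr1* were at -0.50, -0.29 and -0.57 and were not called by edgeR or DESeq2. Voom called *Colec12* (-0.50, unadjusted *P* = 0.00276), as did edgeR without orchiectomized replicate 2 (-0.62, unadjusted *P* = 0.00294). *Marco* was below the filter on low counts.

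The genes outside the 9 whose log2 CPM most resembled their mean z-score over the 15 libraries were *Abca8a* (r = 0.96), *Bicc1* (0.94), *Clec5a* (0.94), *Iqgap3* (0.93), *Tgfbi* (0.92), *Abca8b* (0.92), *Medag* (0.92), *Serpinf1* (0.92), *Dact1* (0.91) and *Frmd4b* (0.91). After group means were removed, the 10 highest were *Abca8a* (0.93), *Frmd4b* (0.93), *Clec5a* (0.91), *Pid1* (0.91), *Abca8b* (0.90), *Bicc1* (0.88), *Rnase4* (0.87), *Iqgap3* (0.86), *C1qtnf7* (0.86) and *Gpc3* (0.86), and 6 genes were in both lists. These correlations rest on 15 libraries with shared scaling and carry no test.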

How the data were processed

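RNA-Seq was performed on poly(A)-selected RNA of 15 whole aortas, 1 library per sample label, with 5 labels per group. Whole-number read counts by gene symbol, not normalized, are what the authors deposited. The submitters' processing notes name mm10, STAR, Cufflinks and DESeq2, without roles or versions; the counting program, the annotation and the use of strand are not given in the sources used here. The 2 entries that are not genes, reads on no feature (6.26% to 14.4%) and ambiguous reads (1.34% to 1.97%), were left out. A gene with 10 counts at the median depth is at 0.915 CPM. The group and the replicate number came from the titles. Nothing in the labels names the litters behind the samples, and *P* values set differences between groups against the spread among libraries of the same group. No pair of libraries of the same group agreed within sampling noise, and pairs from different groups were not examined.

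With edgeR 4.0.16 (R 4.3.3), low genes were removed by filterByExpr at a minimum count of 10 and a minimum total of 15. The rest were scaled by TMM and fitted by a quasi-likelihood model with group as the only term, to all 15 libraries and 14121 genes (biological coefficient of variation 0.297). A call needed an unadjusted *P* value under 0.01, and Benjamini-Hochberg adjusted *P* values cover all genes tested. SEs are the log2 fold change over the root of the F statistic, and 95% CIs use its degrees of freedom. Log2 CPM used a prior count of 3. Genes were matched to GENCODE vM21 (GRCm38) for position and exon length. The fit was first tested on simulated counts whose changes were known. Figures were drawn with Python 3.11.15 and matplotlib 3.10.9.

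The 9 members and the 22 gene lists, which include the 9 genes themselves, were chosen with earlier results of these data known. Named besides the members are the 3 genes of each list (fewer where fewer were called) with the largest log2 fold change between DHT-treated and untreated orchiectomized mice among those called, relatives in the members' families, and the 10 genes most like the members. *Dcn*, *Col1a1*, *Mmp2*, *Ly6a* and *Gpx3* were named in addition after their values were seen. The alternatives were DESeq2 1.42.0, RLE size factors, library size alone, no filter beyond 1 count, a filter of 10 counts in each library, only the groups compared, the replicate number as a block, limma 3.58.1 (voom with quality weights), an adjusted *P* value under 0.05, and leaving out each library in turn. The markers *Muc16* and *Trbc2* were not analysed here, and *Cd3d* and *Marco* were below the filter. The steroid receptor list and a B cell gene that the rule names are not reported here. Values of list genes without 1 library were added after the data were seen.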

Additional observations from a re-analysis of the deposited data

Results flagged for a closer look

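In 2 of 27 groups of 5 libraries (9 genes in 3 groups), 1 library lay far from the others, by a gap over range above 0.71, which chance gives in about 1 group of 20. Control replicate 4 had 260.5 CPM of *Smoc2*, against 192 CPM in the nearest and 166 CPM in the lowest control library (gap over range 0.724). DHT-treated replicate 2 had 171 CPM of *Scara5*, against 116 CPM in the nearest and 100.5 CPM in the lowest DHT-treated library (gap over range 0.785). Neither gene was called in any comparison.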

How the results depend on the processing

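No member was called after orchiectomy in any setting. Against the orchiectomized mice 4 were called with DHT, 2 with voom (*Dpp4*, *Fbln1*) and 3 to 5 without 1 library. Against the control mice 3 were called, 1 at an adjusted *P* value under 0.05 (*Dpp4*), 2 to 5 without 1 library and 5 (*Cd34*, *Dpp4*, *Dpt*, *Fbln1*, *Pi16*) without DHT-treated replicate 2. Of 621 fold changes (27 in 23 settings), 584 kept their direction and side of the threshold, 20 lost the call, 5 gained one and 12 changed sign. After orchiectomy, voom gave -0.089 for *Pdgfra*, -0.0077 for *Dpp4* and -0.018 for *Cd34*, and the fits without 1 library gave -0.045 to 0.19 for *Smoc2* and -0.29 to 0.060 for *Scara5*. Between DHT-treated and untreated orchiectomized mice, voom gave 0.0021 for *Pi16* and 0.084 for *Scara5*; the cause was not tested. *Cd34* lost that call with RLE factors, all genes, only the groups compared, the replicate block (-0.52) and voom (-0.26), *Dpt* with voom (-0.58), and *Pi16* lost that against the control mice with voom (-0.47). *Dpp4* and *Fbln1* kept both calls at the 0.01 threshold in every fit. The replicate numbers were not taken as pairs. Of 15 correlations of deviations between same-numbered libraries, 5 were above 0.1 (range -0.466 to 0.463). Differently numbered libraries were not compared in this way, so these values cannot settle whether the numbers pair the mice. The replicate block changed no other member's call and left 3 and 3 members called. Over all genes, calls after orchiectomy were 294 higher and 160 lower, against 180 and 105 with the block, 498 and 254 with all genes, 140 and 157 with only the groups compared, 359 and 114 with library size alone and 254 and 197 with RLE factors. With DHT against the orchiectomized mice they were 347 and 1026, against 202 and 1280 with library size alone, and against the control mice 214 and 284, against 501 and 491 with voom. Without 1 library these totals were 252 to 716, 1008 to 1585 and 283 to 681. With adjusted *P* values held under 0.05, calls numbered 0 after orchiectomy in edgeR with all libraries and no block (1692 genes at an unadjusted *P* value under 0.05), 2 with the block, 0 to 1 without 1 library, 131 with DESeq2 and 1 with voom. They numbered 666 against the orchiectomized mice (168 with only the groups compared, 1285 with DESeq2, from 181 without DHT-treated replicate 5 to 895 without orchiectomized replicate 1) and 37 against the controls (9 with the block, 229 with DESeq2, from 3 without DHT-treated replicate 5 to 102 without orchiectomized replicate 2). Scaling moved the median of all genes by at most 0.08. At 19 to 65 reads per DHT-treated library, *Dpp4* is the member that depth limits most. Among the other genes listed, the muscle creatine kinase *Ckm* changed sign, to -2.61 without orchiectomized replicate 2 and -1.78 with voom after orchiectomy, and to 2.61 and 1.71 with DHT against the orchiectomized mice.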
